A study of Mus musculus with 5 samples.

Results

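Keratins are the intermediate filament proteins of epithelial cells. The 49 keratin genes described here are the protein-coding genes of the RefSeq table of GRCm38.p6 whose symbol is Krt followed by digits alone, of 21887 protein-coding genes in all. A gene was counted as having a peak when any base of a V5-KLF5 peak lay inside it or within 10 kb of either end. By that rule 19 of the 49 keratin genes (38.8%) had at least 1 peak, against 70.6% of all protein-coding genes. The genes of the simple epithelium, Krt7, Krt8, Krt18 and Krt19, were followed separately, and 3 of these 4 had peaks. Of the 38 epidermal and hair keratin genes 13 had one. The symbols Krt6a, Krt6b, Krt33a and Krt33b carry a letter and so fall outside the rule, and none of these 4 genes had a peak in reach.

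The data are chromatin immunoprecipitations followed by sequencing (ChIP-seq) from mouse embryonic stem (ES) cells. ES cells labelled wild-type and derived from C57B6/J mice overexpressed KLF5 carrying V5, a short peptide tag. Their chromatin was precipitated with an anti-V5 antibody, with normal mouse IgG, or kept as input DNA. Anti-V5 precipitated chromatin and input DNA of wild-type ES-D3 cells, an established mouse ES line without the tag, served as the other control. Each of these 5 groups was 1 library, so no value below has a replicate check and no test between groups was made. The tagged protein was overexpressed, and the labels name neither the promoter driving it nor its level relative to KLF5 of the cells themselves. Peak lists hold no transcript levels, so the ES cell label could not be checked against marker expression, and peaks say where tagged KLF5 was found and not whether a keratin gene was transcribed.

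Type I keratins are acidic and type II keratins basic or neutral, and a filament is built from a pair with a member of each type. Apart from Krt18, which stands at the end of the type II cluster, mouse type I genes are grouped on chromosome 11 and type II genes on chromosome 15, and each epithelium has its characteristic pairs. Krt8 and Krt18 form the pair of simple epithelia and are the earliest keratins of the embryo, made in trophectoderm. KLF5 is a zinc-finger factor of the Krüppel-like family that binds CACCC and GC boxes and is known both for sustaining self-renewal of ES cells and for its presence in proliferating epithelium of skin and gut.

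Sequencing depth was close in the 3 precipitates. After duplicates were removed, 23.17 M (mega) tags remained in the anti-V5 library of the tagged cells, 24.53 M in the IgG library and 21.85 M in the anti-V5 library of the untagged cells. Their lists held 45378, 3 and 0 peaks. At the keratin genes the 3 libraries gave 44, 0 and 0 pairs of a gene and a peak in its reach, so that no keratin gene had a peak in either control. The header of the untagged list carries the run name JM8.N4, another mouse ES line, although the label says ES-D3, and which line it is was not settled.

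Promoter sequences, from RefSeq with the build GRCm38.p6, are shown for 5 genes on which the comparison turns. These are the simple-epithelial genes with an entry in the promoter table, and the epidermal and mucosal genes Krt13 and Krt10, the other keratin genes with a peak over the promoter. Each sequence is the 250 bases before the transcription start, 5′ to 3′ on the strand of the gene, and capitals mark matches to CCNCNCCC, a box of the KLF and SP type, or its reverse complement GGGNGNGG.

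Krt8, chr15:102004343-102004592, minus strand: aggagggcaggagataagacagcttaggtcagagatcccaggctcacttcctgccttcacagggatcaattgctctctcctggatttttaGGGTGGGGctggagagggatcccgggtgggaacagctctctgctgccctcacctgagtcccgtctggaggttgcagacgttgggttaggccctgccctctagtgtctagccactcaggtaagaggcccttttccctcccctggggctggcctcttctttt

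Krt18, chr15:102027966-102028215, plus strand: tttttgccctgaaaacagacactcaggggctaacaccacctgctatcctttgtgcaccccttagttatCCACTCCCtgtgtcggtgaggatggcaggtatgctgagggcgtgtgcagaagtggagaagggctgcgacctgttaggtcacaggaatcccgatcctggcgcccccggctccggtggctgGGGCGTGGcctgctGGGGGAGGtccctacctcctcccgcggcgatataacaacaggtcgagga

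Krt7, chr15:101412153-101412402, plus strand: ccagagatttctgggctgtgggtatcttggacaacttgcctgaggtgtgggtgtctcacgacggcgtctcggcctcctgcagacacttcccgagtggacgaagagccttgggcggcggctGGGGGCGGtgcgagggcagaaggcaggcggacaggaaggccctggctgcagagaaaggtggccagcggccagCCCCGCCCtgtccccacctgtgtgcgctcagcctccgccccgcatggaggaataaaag

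Krt13, chr11:100121567-100121816, minus strand: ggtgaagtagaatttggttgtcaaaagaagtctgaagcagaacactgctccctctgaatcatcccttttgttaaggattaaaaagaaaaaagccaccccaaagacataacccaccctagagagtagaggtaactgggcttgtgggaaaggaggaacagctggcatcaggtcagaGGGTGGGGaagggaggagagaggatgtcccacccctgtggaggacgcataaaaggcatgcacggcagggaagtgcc

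Krt10, chr11:99389365-99389614, minus strand: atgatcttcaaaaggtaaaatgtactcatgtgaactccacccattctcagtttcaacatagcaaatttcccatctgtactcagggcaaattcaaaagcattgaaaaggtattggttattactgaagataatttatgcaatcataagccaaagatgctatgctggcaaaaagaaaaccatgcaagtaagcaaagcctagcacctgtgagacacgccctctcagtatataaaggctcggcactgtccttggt

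The Krt8 sequence held 1 box, 160 bp before the start, and Krt18 held 3, at 182, 63 and 49 bp before it. Krt7 held 2 boxes, 130 and 58 bp before its start, and the nearer of them is the GC-box form CCCCGCCC. Krt13 held 1 box, 76 bp before the start, and Krt10 held 0. Another promoter entry of Krt13, not shown, with its start at chr11:100120577, had neither a box nor a peak over it. A peak lay over the promoters of Krt8, Krt18, Krt13 and Krt10 and not over that of Krt7, so among these 5 sequences a box was present without a peak at Krt7 and a peak without a box at Krt10.

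Krt8, the type II keratin of simple epithelia, lies at chr15:101996711-102004342 on the minus strand and had 4 peaks in reach. Values of a peak are those of the authors: the pileup is the height of extended tags at the summit, and the fold enrichment is the ratio of that pileup to the background estimated from input. The strongest peak, chr15:102002801-102003628, had a pileup of 68 and a fold enrichment of 16.8, and its summit lay inside the gene, 986 bp downstream of the start. A weaker peak stood 183 bp upstream of the start, at chr15:102004349-102004686, with a fold enrichment of 4.35 and a pileup of 30. Its input background of 6.13 tags was at the 95th percentile of all peaks (6.13), against 3.10 tags for the peak inside the gene. The latter is the lowest background in the list, a floor on which 37.9% of all peaks stood, and need not be the local input level. The third, chr15:102009062-102009354, lay 4929 bp upstream under the long noncoding RNA gene Gm36026 and had a fold enrichment of 4.27. The fourth, chr15:101990407-101990788, had a fold enrichment of 5.61 and lay 6111 bp beyond the 3′ end of Krt8, inside the neighbouring keratin gene Krt78. Thus the larger signal at Krt8 was inside the gene, and the peak over the promoter was among the weaker ones.

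Krt18, the type I partner of Krt8 and the only type I keratin gene outside chromosome 11 among the members, lies at chr15:102028216-102032026 on the plus strand. It had 2 peaks. The peak over the promoter, chr15:102027912-102028429, had a pileup of 29 and a fold enrichment of 5.36, with its summit 94 bp upstream of the start. The other, chr15:102025691-102025948, lay 2325 bp upstream and had a pileup of 18 and a fold enrichment of 3.39, the lowest of the peaks at keratin genes. Both genes of the Krt8 and Krt18 pair therefore carried a peak over the promoter, but the strongest peak of Krt8 stood at percentile 92.1 of the 15459 protein-coding genes with a peak and that of Krt18 at percentile 21.7.

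Krt19, the smallest keratin, made in simple and ductal epithelium, lies at chr11:100140810-100145926 and had 4 peaks. The strongest, chr11:100138702-100139300, had a pileup of 54 and a fold enrichment of 13.4 and lay outside the gene, 1866 bp from its left end. A peak inside the gene, chr11:100145035-100145616, had a fold enrichment of 5.17 with its summit 673 bp from the right end. The other two, chr11:100146064-100146424 and chr11:100150479-100150728, lay 254 bp and 4667 bp outside the right end, with fold enrichments of 3.64 and 4.70. The tables used here give no strand for this gene, so its ends are named left and right. For all 4 peaks Krt19 was the nearest protein-coding gene, and its strongest peak stood at percentile 84.8 of genes with a peak.

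Krt7, the type II keratin of glandular, ductal and trophoblast epithelium, lies at chr15:101412403-101427806 and had 0 peaks in reach. The peak nearest to it, chr15:101388101-101388350, lay 24053 bp away on the upstream side, with a fold enrichment of 3.91 and a pileup of 15. Krt7 and Krt19, which are often made together in ductal epithelium, therefore differed in these lists: 0 peaks within 10 kb at the first and 4 at the second. A gene without a peak had no region past the q-value cutoff of 0.05 in 1 library, which does not show that KLF5 was absent from it.

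**Figure D1:**
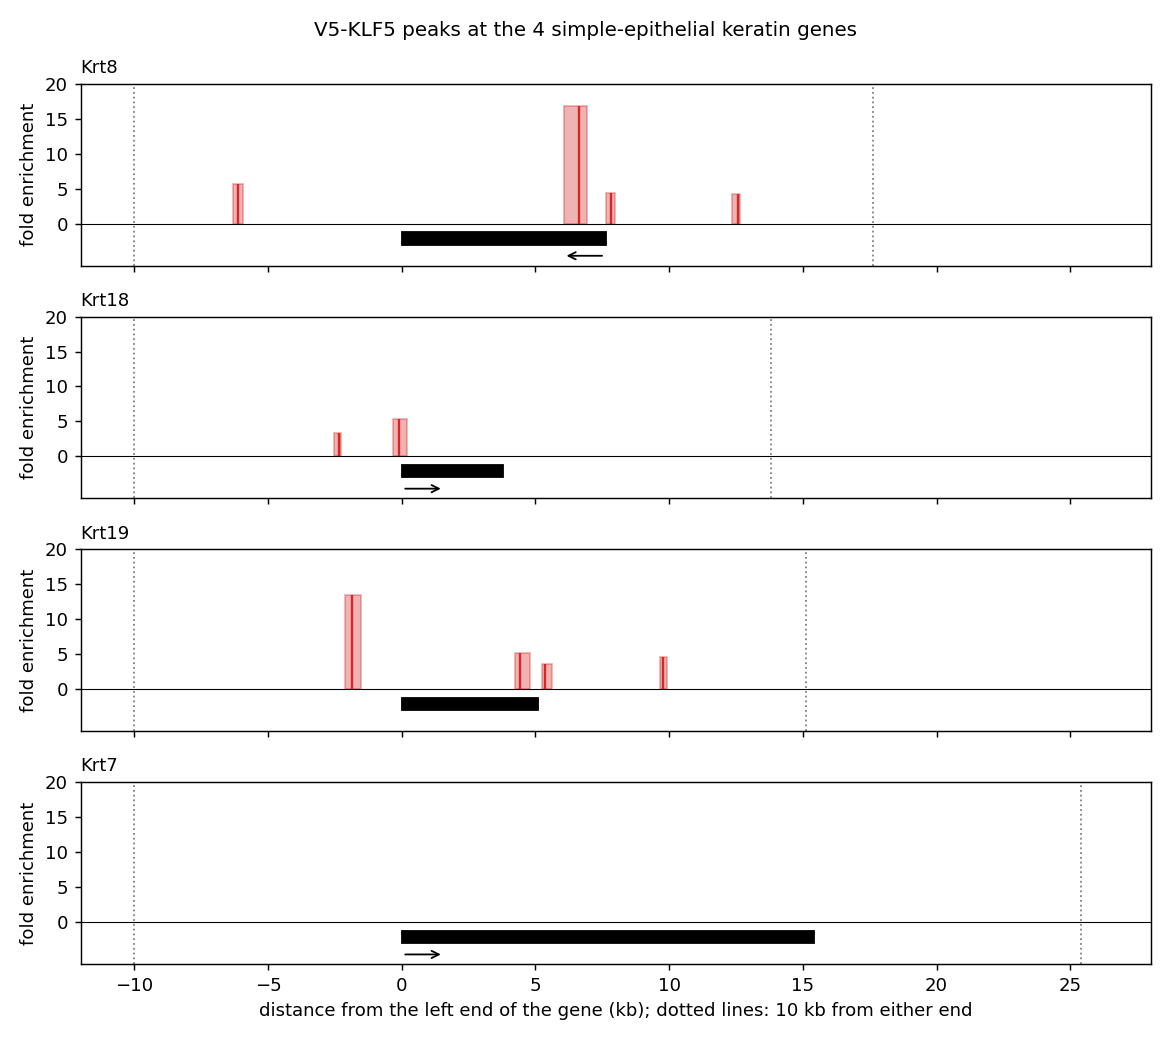
Peaks in reach of the 4 simple-epithelial keratin genes. The x axis gives the distance from the left end of each gene in kb and the y axis the fold enrichment; each box spans a peak with a line at its summit, the black bar is the gene, the arrow gives its direction where the tables hold it, and dotted lines stand 10 kb from either end. Krt8 has its strongest peak (16.8) inside the gene near its start, Krt18 has a low peak (5.36) on its start, Krt19 has its strongest (13.4) outside its left end, and Krt7 has none.

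The epidermal and mucosal class holds the keratins of stratified epithelia, and 10 of its 17 genes had a peak. Among the basal-layer pair, Krt14 had 2 peaks and Krt5 had 0. The Krt14 peaks were a summit 469 bp downstream of the start of its promoter entry, with a fold enrichment of 4.76, and a peak 9619 bp upstream of that start with 5.18 (chr11:100215520-100215836). Krt5 was the member farthest from any peak, at 122.0 kb. Krt15, a further keratin of the basal layer and of hair follicle stem cells, had 3 peaks in reach, with fold enrichments of 13.4, 6.83 and 5.17. None of the 3 was nearest to Krt15: 2 were nearest to Krt19 and 1 to Krt13.

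Of the pair of suprabasal epidermis, Krt10 had 1 peak and Krt1 shared 1 with its neighbour Krt77. The Krt10 peak, chr11:99389152-99389562, had a pileup of 32, a fold enrichment of 5.89 and its summit 29 bp downstream of the start of its promoter entry, which lies inside the span that the gene table gives for Krt10. The peak of Krt1 and Krt77, chr15:101854307-101854670, lay between the genes, 3663 bp from Krt1 and 4282 bp from Krt77, with a fold enrichment of 4.88 and a pileup of 19. In the pair of oral and oesophageal mucosa, Krt13 had 1 peak and Krt4 had 2. The Krt13 peak, chr11:100121424-100121900, had a fold enrichment of 6.83, a pileup of 27 and a summit 86 bp upstream of the start. Krt4 and its neighbour Krt79 shared both of their peaks, one of 3.42 with its summit 141 bp outside the right end of Krt4 and one of 4.34 inside Krt79 (chr15:101929691-101930003). The pileup of 13 at the former was the lowest among peaks of keratin genes.

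The keratins of wounded and appendage epidermis, Krt16 and Krt17, stand side by side on chromosome 11. Krt17 had 2 peaks and Krt16 had 0, its nearest peak being 13031 bp away. The strongest peak of Krt17, chr11:100261933-100262826, had a pileup of 76 and a fold enrichment of 18.8 and stood at percentile 94.6 of genes with a peak. It lay between Krt17 and Krt42, 1150 bp from the former and 703 bp from the latter, so it was counted for both genes. Krt78, a keratin of stratified epithelia, had 6 peaks, the most of any keratin gene. The strongest of these was the 16.8-fold peak of Krt8, 6732 bp outside Krt78. Inside Krt78 itself were 4 peaks with fold enrichments of 10.0, 6.75, 5.61 and 4.55, and these lay between 21953 and 36313 bp upstream of the start in its promoter entry. Krt78 is also the longest member, at 50624 bp. The 7 genes of this class without a peak were Krt2, Krt5, Krt9, Krt12, Krt16, Krt24 and Krt76.

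Hair shaft and nail keratins had the fewest peaks among the larger classes with any, 3 of 13 genes, and the root sheath keratins had none, 0 of 8. The 3 hair genes, Krt81, Krt83 and Krt86, are cortex keratins that lie together on chromosome 15. Krt81 had a peak inside the gene (chr15:101459405-101459761, fold enrichment 4.60, pileup 23), also in reach of Krt88. Krt86 had a peak inside the gene (chr15:101479122-101479593, fold enrichment 5.13, pileup 20), also in reach of Krt83. Krt83 had 2 more on its right side, of which the stronger, chr15:101492945-101493326, reached 7.08 at a distance of 1644 bp. Krt81, Krt83 and Krt86 are close paralogs. The sources used here do not say how reads with more than 1 match in the genome were handled, so the placing of the peaks inside Krt81 and Krt86 is uncertain. The same limit applies wherever keratin or keratin-associated genes have close paralogs, also where no peak was called. No peak was in reach of the hair genes Krt31, Krt32, Krt34, Krt35, Krt36, Krt39, Krt40, Krt82, Krt84 and Krt87, nor of the root sheath genes Krt25, Krt26, Krt27, Krt28, Krt71, Krt72, Krt73 and Krt75. Krt20, Krt23 and Krt80, grouped here as other simple or glandular keratins, also had 0 peaks. That grouping came from general knowledge and does not mean that each is limited to such epithelia.

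The strongest signal at any keratin gene was at Krt42, a type I gene at the right end of the chromosome 11 cluster for which the gene table lists the synonyms K17n and ecat6. Names of the ecat series were given to transcripts found abundant in ES cells. Krt42 had 5 peaks. The strongest, chr11:100273898-100275974, had a pileup of 142 and a fold enrichment of 28.5, lay 5041 bp upstream of Krt42 under the long noncoding RNA gene Gm14206, and stood at percentile 98.9 of genes with a peak. On the other side of the gene was the 18.8-fold peak shared with Krt17, and 3 weaker peaks upstream reached 3.76, 3.78 and 6.96. The series went on past the 10 kb reach, with peaks of 5.18, 19.1 and 27.6 at 12060, 15195 and 17263 bp from Krt42. Krt42 was the nearest protein-coding gene for each of its 5 peaks, but the peak over Gm14206 cannot be assigned to either gene from these lists. Of the other unclassified genes, Krt222 had a 12.2-fold peak 2167 bp outside its left end that lay in Smarce1, a chromatin remodelling gene, and a peak of 4.88 inside the gene. Krt88 had only the peak shared with Krt81, and Krt90 had 0.

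**Figure D2:**
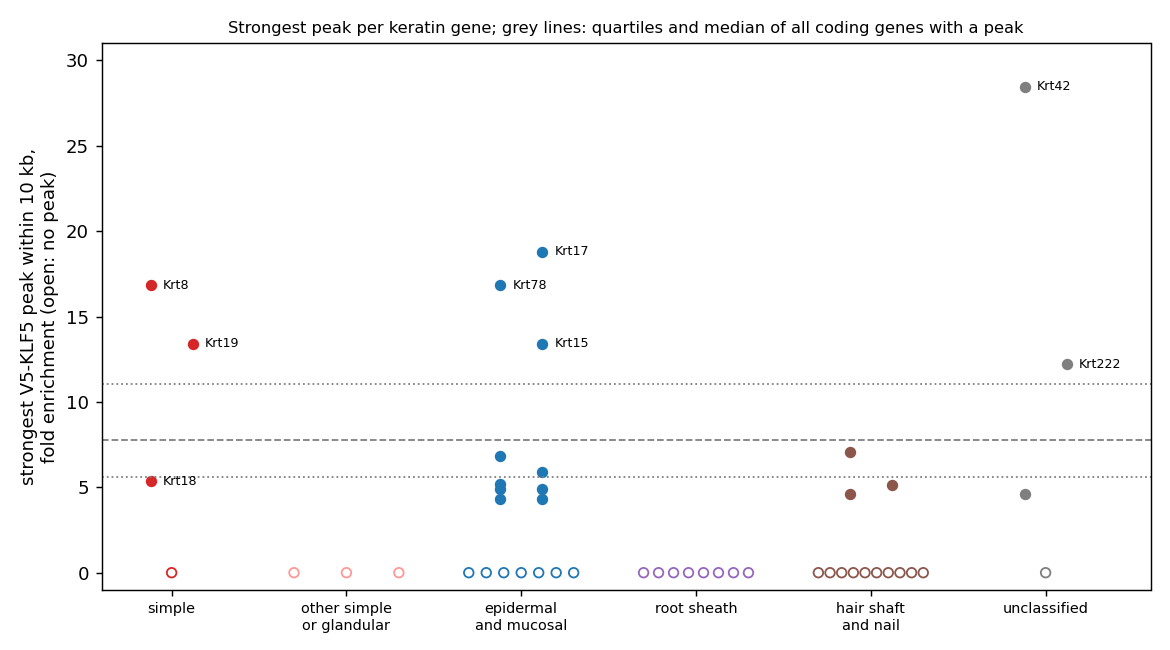
Strongest peak within 10 kb of each keratin gene. The y axis is fold enrichment, each point is a gene placed by class, open points at the bottom are genes without a peak, and grey lines are the quartiles (5.59 and 11.1, dotted) and the median (7.76, dashed) of the 15459 protein-coding genes with a peak. The 7 named points above the upper line are Krt42, Krt17, Krt8, Krt78, Krt19, Krt15 and Krt222, and the pairs Krt8 with Krt78 and Krt19 with Krt15 each stand on 1 shared peak.

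Where keratin genes had a peak, the strongest one varied widely around a median below that of all genes with a peak. The strongest is the highest of all peaks in reach, and it was not adjusted for their number or for gene length. The strongest peak per gene had a median fold enrichment of 5.89 over the 19 keratin genes, with a range of 4.34 to 28.5, against 7.76 over all genes with a peak. With neighbours allowed to share a peak, 7 genes were above the all-gene upper quartile of 11.1. The other 12 were at 7.08 or lower, under the all-gene median. The 19 values stood on 14 distinct peaks and the 7 high ones on 5, and that of Krt222 was nearest to Smarce1. A 10.0-fold peak inside Krt78 lay between the high and low values but was not its strongest. Counted as peaks and not genes, 31 distinct peaks gave the 44 pairs. Of these peaks 13 were in reach of more than 1 keratin gene, and 30 were nearest to a keratin gene. The 31 peaks had a median fold enrichment of 5.13, against 5.18 for all peaks, and 6 of them (19.4%) reached 10 or more, against 13.0% of all peaks. Their input background was 3.10 to 6.13 tags with a median of 3.53, against a median of 3.45 for all peaks. The median number of peaks per gene was 0 for keratin genes and 2 for all protein-coding genes. With fold enrichment of at least 10 required, 7 of 49 keratin genes had a peak (22.5% of all genes did): Krt42, Krt17, Krt8, Krt78, Krt19, Krt15 and Krt222.

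Keratin genes are short, with a median of 7422 bp against 17169 bp for all protein-coding genes. Among the 13747 protein-coding genes within the length range of the keratin genes, 2812 to 50624 bp, 74.4% had a peak within 10 kb. The keratin share was also below that of both home chromosomes. On chromosome 11, 80.6% of protein-coding genes had a peak and 8 of 25 keratin genes did; on chromosome 15, 81.2% of genes did and 11 of 24 keratin genes. The shares of most classes grew with the reach allowed, and the order of the 4 classes given next was the same at 1, 10 and 50 kb. Within 1 kb the count was 14 of 49 keratin genes (63.2% of all genes), with 3 of the 4 simple-epithelial genes, 7 of 17 epidermal and mucosal, 2 of 13 hair shaft and nail and 0 of 8 root sheath genes. Within 50 kb it was 38 of 49 (81.1% of all genes), with 4 of 4, 16 of 17, 9 of 13 and 4 of 8 in the same order. The simple-epithelial count was the same at 1 and 10 kb, while the epidermal and mucosal count grew at each step. With 4 simple-epithelial genes a single gene decides how they compare with the rest, and the difference was not tested. When each peak was given only to the nearest protein-coding gene, 15 of 49 keratin genes kept one (62.4% of all genes), and the simple-epithelial count stayed at 3. Counting summits in place of any base left the keratin count at 19 (70.5% of all genes), and a −log10 q of at least 10 left 12 keratin genes (54.9% of all genes), again with 3 of the 4 simple-epithelial genes.

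**Figure D3:**
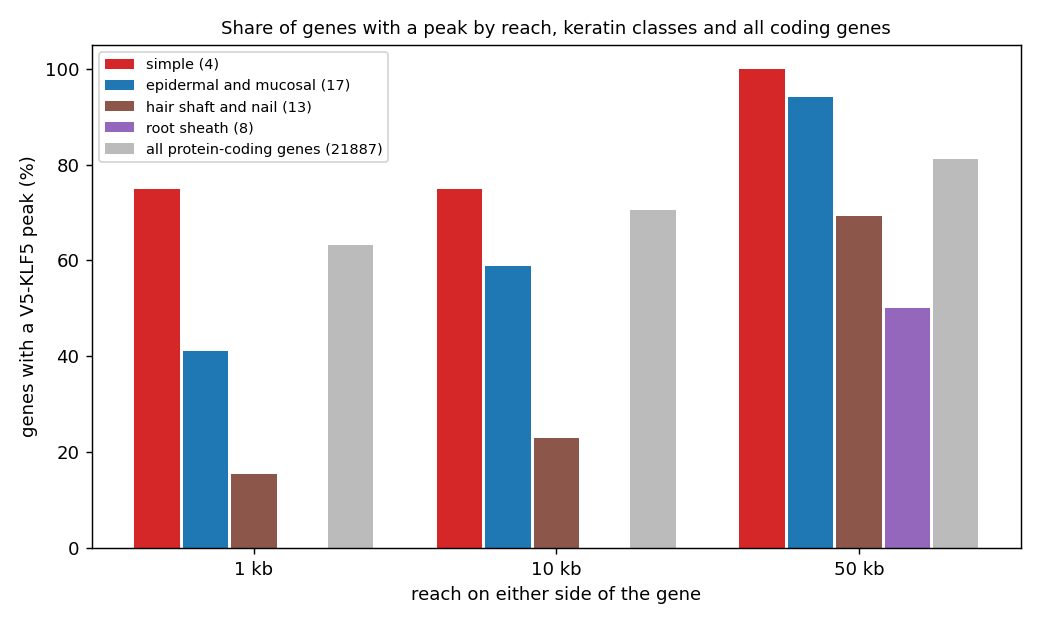
Share of genes with a V5-KLF5 peak when the reach on either side of the gene is 1, 10 or 50 kb. Bars give the percent of genes in 4 keratin classes and of all 21887 protein-coding genes (grey), with the number of genes in the key; a missing bar is a share of 0, and the classes of 3 and 4 other genes are left out. Simple-epithelial genes stand at 3 of 4 genes already at 1 kb, while hair and root sheath genes stay below all genes at each reach.

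Most keratin genes without a peak were not narrow misses. Of the 30 genes with 0 peaks in reach, 6 had a peak within 20 kb and 11 had none within 50 kb, with a median distance of 38.25 kb. The 6 just outside the limit were Krt80 at 11399 bp, Krt36 at 11937 bp, Krt9 at 12080 bp, Krt16 at 13031 bp, Krt28 at 14249 bp and Krt2 at 15962 bp. On the inner side, Krt88 was the counted gene whose nearest peak was farthest, at 5480 bp, and 12 keratin genes were overlapped by a peak. No keratin gene therefore had its nearest peak between 5480 and 11399 bp, and a limit set anywhere in that range gives the same count of 19.

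Peaks were unevenly spread along both clusters. In the type I cluster, chr11:99232761-100269951 from Krt222 to Krt42, 15 summits fell in 1.037 Mb, a density of 14.5 per Mb (exact 95% Poisson interval 8.09 to 23.9, counting error only). That was 0.493 times the density of chromosome 11, 29.3 per Mb (interval of the ratio 0.276 to 0.814), and close to the 16.8 per Mb of the genome. In the type II cluster, chr15:101348315-102032026 from Krt80 to Krt18, 18 summits in 0.684 Mb gave 26.3 per Mb (15.6 to 41.6), 1.44 times the 18.3 per Mb of chromosome 15 (0.851 to 2.27). The interval of the ratio excluded 1 for type I and not for type II, but neither statement held under every alternative. The type I ratio was 1.02 (0.277 to 2.61) from 4 summits at a fold enrichment of at least 10, 0.547 (0.236 to 1.08) at a −log10 q of at least 10 and 0.870 (0.583 to 1.25) with 50 kb added on both sides, so its interval included 1 in all 3. The type II ratio was 1.11 (0.135 to 4.02) and 0.986 (0.362 to 2.15) under the stricter peak lists, and 1.81 (1.18 to 2.65) with 50 kb added, where its interval excluded 1.

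Long stretches of both clusters held no summit. The longest, 337.8 kb in the type II cluster, held Krt84, Krt82, Krt90, Krt75, Krt6b, Krt6a, Krt5, Krt71, Krt72, Krt73 and Krt2, and 61 of the 1904 gaps between summits on chromosome 15 were at least as long. In the type I cluster a stretch of 147.9 kb held Krt24 and the root sheath genes Krt25 to Krt28, and a stretch of 247.2 kb held Krt12, Krt20, Krt23, Krt39, Krt40 and 10 keratin-associated protein genes. A stretch of 183.5 kb held the hair genes Krt33a, Krt33b, Krt34, Krt31, Krt32, Krt35 and Krt36 and ended over the promoter of Krt13. The longest there, 278.1 kb, held 8 keratin-associated protein genes and no keratin gene. Of the 3574 gaps on chromosome 11, 146, 76, 118 and 60 were at least as long as these stretches, in the order given. Most peaks of the type I cluster lay between Krt13 and Krt42, and most of the type II cluster between Krt4 and Krt18 or around Krt81 to Krt83. Only 7 peaks with a summit inside the clusters were out of reach of every member, 5 on chromosome 11 and 2 on chromosome 15. The strongest of those were an 11.3-fold peak among keratin-associated protein genes, an 11.2-fold peak 18085 bp from Krt9 and a 9.46-fold peak 10027 bp from Krt1.

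**Figure D4:**
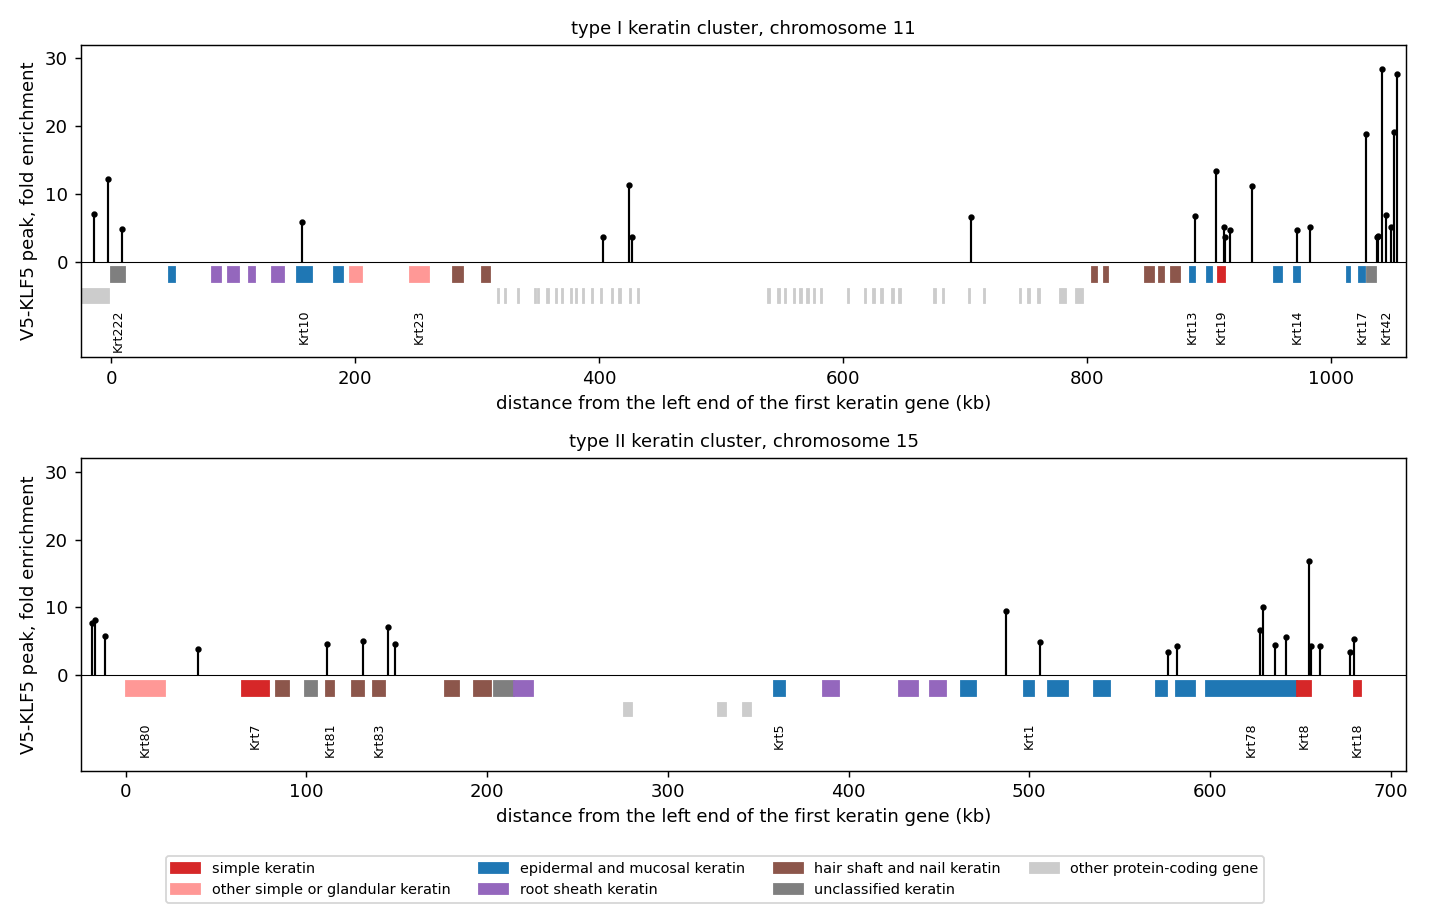
Maps of the 2 keratin clusters. The x axis is the distance in kb from the left end of the first keratin gene, black lines give the fold enrichment of each V5-KLF5 peak at its summit, coloured boxes are keratin genes by class (some are named) and grey boxes are other protein-coding genes, including the 4 keratin genes with a letter in the symbol. The highest lines stand at the right end of the type I cluster around Krt42 (28.5) and at Krt8 in the type II cluster (16.8), and the middle of each cluster is largely without peaks.

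Peaks over promoters were rarer at keratin genes than elsewhere. The promoter table, with 250 bases before and 50 after each start, held 36 promoters of 35 keratin genes. A peak covered part of 4 of them (11.1%), those of Krt8, Krt18, Krt13 and Krt10, against 44.5% of all promoters of protein-coding genes. Keratin promoters held few CpG dinucleotides, a median of 5 against 13 over all promoters and 23 over promoters under a peak. The share under a peak was therefore also read by CpG count, a split chosen after the counts were seen. With at most 5 CpG, 2 of 19 keratin promoters were under a peak (Krt13 and Krt10), against 4.20% of all such promoters. With 6 to 11 CpG, 1 of 15 was (Krt8), against 26.2%, and with more than 11 CpG, 1 of 2 was (Krt18 with 17 CpG, and not Krt7 with 21), against 74.3%. By these counts the keratin share was not below that of all promoters with at most 5 CpG, and was below it with 6 to 11 CpG. The latter rests on 1 of 15 promoters. Most keratin promoters in that range stood at its lower end of 6 CpG, so the comparison is not matched for CpG count. What CpG content contributes to the share was not tested.

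Boxes of the KLF and SP type were less common in keratin promoters than in all promoters, and about as common as in promoters not under a peak. The median GC content was 48.8% in keratin promoters, 56.3% in all promoters and 50.0% in those not under a peak. What GC content contributes to the share with a box was not tested. CCNCNCCC, searched on both strands with overlapping matches allowed, occurred in 14 of 36 keratin promoters (38.9%), against 56.6% of all promoters, 77.7% of those under a peak and 39.7% of those not under a peak. All 3 simple-epithelial promoters held it, 7 of 13 epidermal and mucosal ones, 2 of 8 hair shaft and nail ones and 1 of 8 root sheath ones. The form CCACACCC occurred in 3 keratin promoters (8.33%, against 3.63% of all), none of them under a peak, and the form CCCCGCCC only in that of Krt7 (2.78%, against 23.6% of all). A match describes letters in the window and is not a measured binding site.

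Lists of other genes were placed beside the keratins: other intermediate filaments, keratin anchors, the cornified envelope, keratin-associated proteins and other genes inside the clusters. Among 16 other intermediate filament genes all 16 had a peak, with a median strongest fold enrichment of 8.79, led by Prph (peripherin, of neurons) at 26.6 and Lmnb1 (a nuclear lamin) at 25.9. All 10 genes of desmosomal and cytolinker proteins that anchor keratin filaments had one, with a median of 10.3, led by Plec (plectin) at 33.5 and Jup (plakoglobin) at 17.0. Of 10 genes of the cornified envelope, the protein shell of dead epidermal cells, 4 had a peak, led by the transglutaminases Tgm1 at 46.3 and Tgm3 at 10.8. Keratin-associated proteins form the matrix of the hair shaft, and 6 of their 56 genes (10.7%) had a peak, led by Krtap4-6 at 11.3 and Krtap31-2 at 6.59. The 39 genes inside the clusters that are no keratin, most of them keratin-associated, had a peak in 7 cases. Of those 7 genes, 5 are keratin-associated genes also counted among the 6, so these lists overlap and their genes share peaks. Every gene of the anchoring and other filament lists thus had a peak, while root sheath keratins (0 of 8), keratin-associated proteins (6 of 56), other genes inside the clusters (7 of 39) and hair keratins (3 of 13) had the lowest shares among lists of 8 or more genes. The lists were not matched for gene length, and a longer gene has a wider reach. The anchoring gene Dst had 20 peaks, the strongest 166066 bp inside it, while the median keratin gene spans 7422 bp. In the filament list, the strongest peaks of Bfsp1, Gfap and Nefh were nearest to other genes. These are counts in 1 library beside 70.6% of all genes, and the differences between the lists were not tested.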

How the data were processed

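Peak lists deposited for the 3 immunoprecipitates were analysed, and both inputs enter through the peak calling alone. Per the file headers, peaks were called with MACS2 2.1.0.20140616 on each library alone against the input of the same cells, with 51 bp tags extended to 250 bp, 1 tag kept per position and a q-value cutoff of 0.05. The submitters' processing notes name mm10 and Bowtie 0.12.8. For each peak the authors deposited a pileup signal at the summit, its −log10 q-value with the −log10 p-value behind it, and a fold enrichment. The deposited fold enrichment is the ratio of pileup to input background, with 1 added to each. Input background was computed back from the deposited pileup and fold enrichment.

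Peaks were joined to genes of the RefSeq table of GRCm38.p6, the assembly of mm10, with coordinates counted from 1. The 12 peaks off the assembled chromosomes were not used. The table gives no strand, so strand and start came from the RefSeq promoter table, and genes without an entry there are described by their left and right ends. Assignment of peaks to genes was tested on simulated peaks. Python 3.11.15 with pandas 2.3.3, numpy 2.4.6 and scipy 1.17.1 was used.

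The 49 genes follow from their symbols. Class lists came from general knowledge, and members and lists were chosen with earlier results of these data known. The text names the simple-epithelial genes, every keratin gene with a peak and the 2 leading genes of each comparison list. With 1 library per group no test was possible: counts stand beside those over all protein-coding genes, and Poisson intervals at 95% cover counting error only. Alternatives were a reach of 1 or 50 kb, a fold enrichment or −log10 q of at least 10, summits only, the nearest gene only, symbols with a letter, wider cluster limits, pileup as strength and other forms of the motif.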

Additional observations from a re-analysis of the deposited data

How the results depend on the processing

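No paired analysis was possible because each group was 1 library. Of 35 alternative values, 24 stayed within 1.5 times the reported value (densities within its counting interval, pileup relative to all genes) and 11 moved. The keratin count of 19 moved to 38 within 50 kb, to 12 at a −log10 q of at least 10 and to 7 when the fold enrichment had to reach 10. The epidermal and hair count of 13 moved to 29, 7 and 3 in the same order. The median strongest peak moved to 9.46 within 50 kb, and at that reach the median over all genes with a peak was 10.01. The 38 keratin genes with a peak within 50 kb stood on 14 distinct strongest peaks. The type I density ratio of 0.493 moved to 1.02 at a fold enrichment of at least 10 (4 summits) and to 0.870 with 50 kb added at both sides. The motif count of 14 promoters moved to 3 for CCACACCC and 1 for CCCCGCCC, which are narrower forms of it. The cause of the other shifts was not tested. Leaving out peaks nearest to a gene that is no keratin, an alternative chosen after the data were seen, left the counts at 19, 3 and 13. A weak site below the q-value cutoff cannot be seen in these lists, and 12 of the 31 keratin peaks stood on the lowest background that the list holds (tolerance 0.01), as did 37.9% of all peaks.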
